A study of Rattus norvegicus with 21 samples.

Results

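The genes described here encode the mitochondrial respiratory chain: the subunits of complexes I to IV, the subunits of ATP synthase (complex V) and assembly factors named with them. They were chosen by gene name, a rule that uses no measured difference but was set with earlier results of these data known: every probe set with a single gene symbol in the array's annotation beginning with Nduf, with Uqcr, with Cox and a digit or with Atp5, together with Sdha, Sdhb, Sdhc and Sdhd. A gene with several such probe sets was represented by the probe set with the highest mean over the arrays. The rule gave 95 of the 14218 genes with a single-symbol probe set, and these 95 genes had 110 of the 20832 such probe sets. They comprised 36 genes of complex I, 4 of complex II, 7 of complex III, 17 of complex IV, 16 of complex V and 15 assembly factors (Ndufaf1, Ndufaf3, Ndufaf4, Ndufaf5, Ndufaf7, Ndufaf8, Cox10, Cox11 and Cox14 to Cox20). The complex was assigned by gene name alone. Ndufa4 and Ndufa4l2, treated with the complex IV forms below, therefore count under complex I, and the pseudogene Cox6c-ps1 counts under complex IV.

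Livers of male rats were profiled on 21 Affymetrix arrays, 3 animals in each of 7 dose groups. In the piperonyl butoxide (PBO) study, Sprague-Dawley rats were dosed by mouth for 7 days with 0, 500, 1000 or 1500 mg/kg, where the undosed rats received 0.5% methyl cellulose, and the livers were kept in RNAlater. In the dammar resin (DAM) study, Fischer344 rats ate a diet with 0, 2 or 5% of the resin for 28 days, equal to 0, 800 and 2000 mg/kg, the undosed rats ate the basal diet, and the livers were frozen in liquid nitrogen. PBO is an insecticide synergist that inhibits cytochrome P450 enzymes, and dammar resin is a plant resin used as a food additive and in varnishes. The labels call the replicates biological, and 3 arrays per group limit the precision of every value.

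The respiratory chain passes electrons from NADH (through complex I) and from succinate (through complex II) to coenzyme Q, then through complex III and cytochrome c to oxygen at complex IV, and ATP synthase uses the resulting proton gradient to make ATP. Most subunits are encoded in the nucleus and imported, a few core subunits are encoded by mitochondrial DNA, and assembly factors insert haem, copper and subunits without staying in the finished complex. Hepatocytes are rich in mitochondria and draw on the chain for gluconeogenesis, ureagenesis and fatty acid oxidation. Transcription of the nuclear-encoded subunits is classically tied to the factors NRF1 and GABPA (also called NRF2), and to the coactivator encoded by Ppargc1a.

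The promoters of 6 members, picked by hand from the results below, are shown first, from the RefSeq annotation of the rat assembly GRCr8. Each runs from 250 bases before to 50 bases after a start of the gene and is written in the direction of the gene. That start is the edge of the gene's annotated span, except for Cox17, where it lies inside a span ending at 75912036. Capitals mark the letters of the NRF1 motif (GCGCA, any base, GCGC) or of the GABPA motif (CCGGAAG, or CTTCCGG on the other strand). Atp5if1, Cox17 and Cox15 were higher at the highest dose of both compounds.
Atp5if1, chr5:150026628-150026927, minus strand: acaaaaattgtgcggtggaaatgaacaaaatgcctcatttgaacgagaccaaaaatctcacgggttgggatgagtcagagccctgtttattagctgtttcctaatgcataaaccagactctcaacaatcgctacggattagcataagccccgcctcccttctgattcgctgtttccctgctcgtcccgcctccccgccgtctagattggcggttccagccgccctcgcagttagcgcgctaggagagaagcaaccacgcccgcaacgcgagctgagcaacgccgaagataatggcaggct
Cox17, chr11:75911970-75912269, minus strand: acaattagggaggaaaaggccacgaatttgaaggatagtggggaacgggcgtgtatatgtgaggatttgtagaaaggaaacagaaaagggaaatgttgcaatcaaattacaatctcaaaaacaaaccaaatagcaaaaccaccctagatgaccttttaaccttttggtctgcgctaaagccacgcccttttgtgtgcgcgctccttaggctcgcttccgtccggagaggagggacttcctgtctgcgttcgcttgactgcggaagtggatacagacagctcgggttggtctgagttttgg
Cox15, chr1:252571422-252571721, minus strand: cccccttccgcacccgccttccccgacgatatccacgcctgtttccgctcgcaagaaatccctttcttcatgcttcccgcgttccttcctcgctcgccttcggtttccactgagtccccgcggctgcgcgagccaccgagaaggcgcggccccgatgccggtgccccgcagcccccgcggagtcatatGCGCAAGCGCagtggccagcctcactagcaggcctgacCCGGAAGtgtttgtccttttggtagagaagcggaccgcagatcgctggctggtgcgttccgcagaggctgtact
The windows of Atp5if1 and Cox17 held neither motif, and that of Cox15 held both, with the NRF1 letters starting 62 bases and the GABPA letters 24 bases before the start. The next 3 promoters belong to members that moved in 1 study and differed in response between the compounds: Cox4i1 was higher with DAM, and Ndufv3 and Ndufb7 were lower with PBO.
Cox4i1, chr19:65630133-65630432, plus strand: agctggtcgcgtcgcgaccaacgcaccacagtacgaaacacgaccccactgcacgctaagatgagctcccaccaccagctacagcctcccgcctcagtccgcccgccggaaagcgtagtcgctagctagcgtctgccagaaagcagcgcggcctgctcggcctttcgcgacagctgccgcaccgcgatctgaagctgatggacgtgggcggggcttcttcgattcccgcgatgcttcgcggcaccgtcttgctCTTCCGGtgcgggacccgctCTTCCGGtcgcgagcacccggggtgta
Ndufv3, chr20:9613536-9613835, plus strand: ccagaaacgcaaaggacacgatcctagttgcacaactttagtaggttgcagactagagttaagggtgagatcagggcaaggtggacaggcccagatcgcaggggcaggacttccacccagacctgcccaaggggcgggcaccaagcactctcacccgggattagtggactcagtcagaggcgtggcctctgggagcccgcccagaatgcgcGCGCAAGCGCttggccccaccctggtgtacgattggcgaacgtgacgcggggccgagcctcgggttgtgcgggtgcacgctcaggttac
Ndufb7, chr19:41477242-41477541, minus strand: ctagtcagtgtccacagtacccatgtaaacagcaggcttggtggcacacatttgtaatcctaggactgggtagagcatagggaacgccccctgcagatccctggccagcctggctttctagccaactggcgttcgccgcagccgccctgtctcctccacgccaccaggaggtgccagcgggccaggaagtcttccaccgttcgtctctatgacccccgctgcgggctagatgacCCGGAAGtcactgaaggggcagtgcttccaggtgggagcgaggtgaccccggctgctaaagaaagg
The Cox4i1 window held the GABPA letters at 2 places just after the start, the Ndufv3 window held the NRF1 letters and the Ndufb7 window the GABPA letters. The windows of Cox14 and Ndufb10, which are not shown, held neither motif. The difference of these 2 members between the compounds passed in every alternative setting, unlike that of the 3 shown. A promoter was found for 86 of the 95 members. The NRF1 letters, searched on both strands, stood in 17 of these 86 windows (19.8%), against 4.71% of all 27457 rat promoters and 8.5% of the promoters of genes on the array. The GABPA letters stood in 25 of the 86 (29.1%), against 9.22% of all promoters and 15% of those of genes on the array. Neither motif contains the other, and 40 of the 86 members (46.5%) held at least 1 of them, against 21.6% of the promoters of genes on the array. Among the 10 members that fell at PBO 1500 mg/kg, 5 held the GABPA and 2 the NRF1 letters, among the 9 that rose 2 held each, and among the 11 that rose at DAM 2000 mg/kg 3 held the GABPA and 4 the NRF1 letters. The letters were present in every one of these sets, and a match describes the sequence only.

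Each array had been scaled so that its trimmed mean signal was near 500, and the median signal over all probe sets was 94.3 to 114 on the PBO arrays and 76.0 to 86.2 on the DAM arrays. The 3'/5' signal ratio of the actin control probe sets, a measure of RNA integrity, was 2.38 to 2.78 at PBO 1500 mg/kg, against 2.85 to 3.16 in undosed PBO rats (exact two-sided permutation test, p = 0.1, the smallest that 3 against 3 arrays allow), and 7.26 to 9.71 at DAM 2000 mg/kg, against 7.08 to 9.81 in undosed DAM rats (p = 0.9). The third array at PBO 1500 mg/kg lay farthest from its group: the root mean square deviation of the members from their group means was 0.21 log2 units on it, against 0.08 to 0.16 on the other PBO arrays. Markers of hepatocytes had high signals on every array, and 7 muscle markers summed to at most 323 signal units in these 4 groups. In bulk liver, fewer cells of a type and less RNA per cell cannot be told apart.

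At PBO 1500 mg/kg 5 assembly factors and the ATP synthase inhibitor rose, while 8 complex I subunits fell. Of the 89 members with enough signal to be tested, 9 rose and 10 fell relative to undosed rats (limma on log2 of the signal plus 16, Benjamini-Hochberg adjusted p under 0.05 over 18625 probe sets). That is 10.1% and 11.2% of the members tested, against 8.08% of all probe sets higher and 9.26% lower, so neither share stood far from the background. The median change of the members was -0.09 on the log2 scale and that of all probe sets -0.08. By class, 5 of 15 assembly factors rose and none of the 15 fell, whereas 8 of 36 complex I genes fell and 2 rose. Complex V had 1 rise and 2 falls among 16 genes, and complex III 1 rise among 7. None of the 4 complex II genes and none of the 11 tested complex IV genes passed the test. An unadjusted p under 0.05 was reached by 2 genes of complex II (both lower) and 3 of complex IV (1 higher, 2 lower). The share of all probe sets at that unadjusted threshold was not counted. Some alternative settings gave calls in these classes. Without replicate 2 at 1500 mg/kg 2 complex II genes and 1 complex IV gene were lower, and with the filter at the 60th percentile 1 and 2. After quantile normalization or median scaling 1 complex IV gene was higher. The counts depended on the undosed animals: without replicate 3 of the undosed group 5 members rose and 5 fell, and without its replicate 2 only 4 fell, 3 of them in complex I. Without the third array at 1500 mg/kg, 11 rose and 9 fell, and the 5 assembly factors stayed at 5 (without undosed replicate 3 they were 3).

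**Figure D1:**
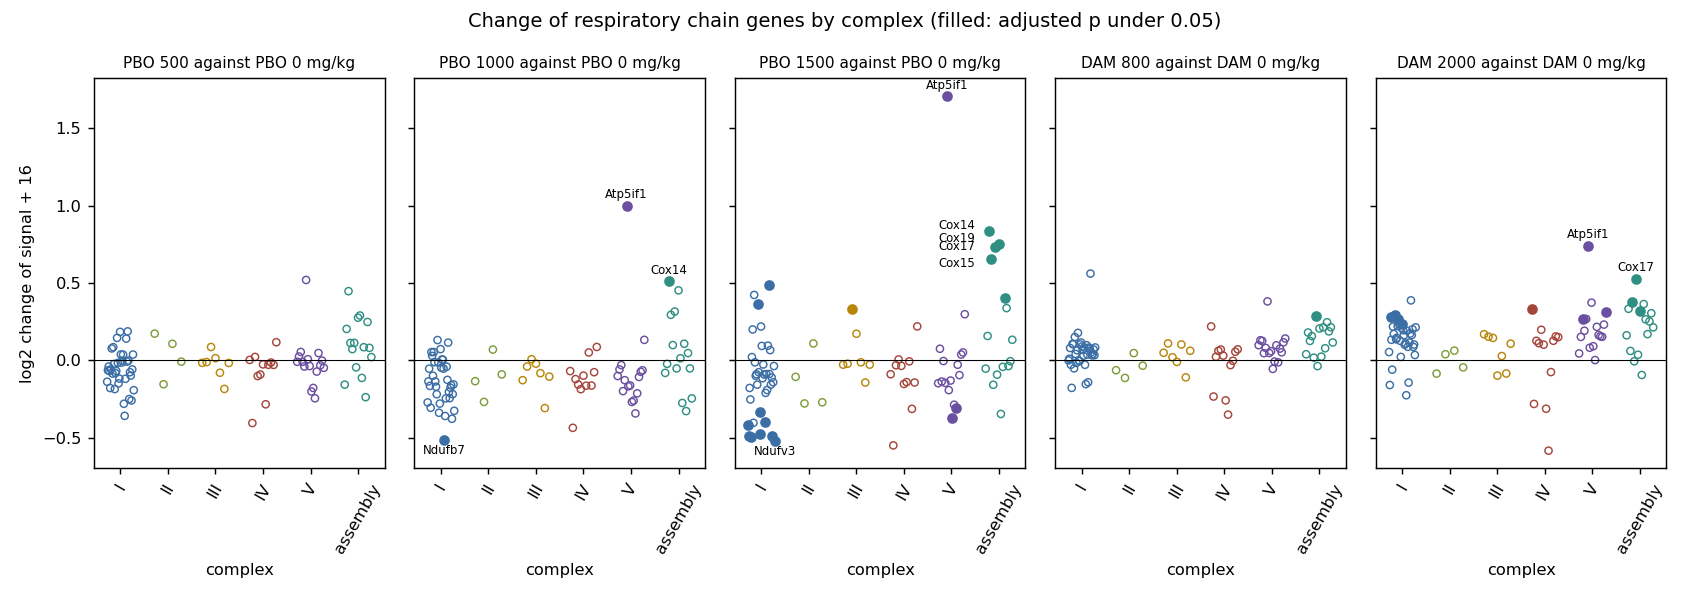
Log2 change of signal plus 16 in each dosed group against the undosed group of the same study (y axis), with 1 point per tested gene grouped by complex (x axis) and filled points for adjusted p under 0.05. The 2 panels of the highest doses hold most filled points: at PBO 1500 mg/kg they lie on both sides of 0, with Atp5if1 at 1.71, and at DAM 2000 mg/kg all 11 lie above 0.

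Atp5if1 encodes the inhibitory factor that binds ATP synthase and blocks ATP hydrolysis when the proton gradient fails (gene at chr5:150022960-150026677 in GRCr8). Its signal was 918, 841 and 903 in the undosed PBO rats, 1248, 1319 and 1269 at 500 mg/kg, 1799, 1941 and 1637 at 1000 mg/kg and 2488, 2465 and 4106 at 1500 mg/kg. No 2 neighbouring dose groups overlapped, and the highest value belonged to the third array at 1500 mg/kg. The change was 3.26-fold at 1500 mg/kg (log2 1.71 ± 0.17 SE, n = 3 each, adjusted p = 3.76e-05), the largest among the members, and log2 1.47 without that array. At 1000 mg/kg it was 2.00-fold (log2 1.00, adjusted p = 0.00693), and at 500 mg/kg log2 0.52 (adjusted p = 0.294). The gene has 2 dimmer probe sets, which gave log2 -0.32 and -0.22 at 1500 mg/kg, neither past the test. When all 3 probe sets were averaged the change was log2 0.39 (adjusted p = 0.179), so the rise rests on the brightest probe set, and at 1000 mg/kg the averaged change was log2 0.31 (adjusted p = 0.472).

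The assembly factors that rose at PBO 1500 mg/kg all serve complex IV except Ndufaf3, a complex I assembly factor. Cox14 takes part in assembling complex IV around the mitochondrially encoded COX1 subunit, and its signal was 1906, 1940 and 1856 in undosed PBO rats, 2531, 2535 and 2730 at 500 mg/kg, 2685, 3044 and 2443 at 1000 mg/kg and 3010, 3266 and 4032 at 1500 mg/kg. Every dosed animal lay above every undosed one, while the 500 and 1000 mg/kg groups overlapped. The change was log2 0.84 ± 0.12 at 1500 mg/kg (adjusted p = 0.000671) and log2 0.51 ± 0.12 at 1000 mg/kg (adjusted p = 0.0453).

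Cox17 and Cox19 take part in copper delivery to complex IV, with Cox17 acting as the copper chaperone. Cox17 had signals of 2814, 3206 and 4048 at PBO 1500 mg/kg, against 1982, 2080 and 1914 in undosed rats (log2 0.73 ± 0.13, adjusted p = 0.00275). Cox19 had 1856, 2350 and 1956 at PBO 1500 mg/kg, against 1194, 1099 and 1333 in undosed rats (log2 0.75 ± 0.12, adjusted p = 0.00137). The groups did not overlap for either gene, and both had intermediate signals at 1000 mg/kg. A second, dimmer Cox19 probe set changed by log2 0.03 (adjusted p = 0.965), and averaged over both probe sets the Cox19 change was log2 0.39 (adjusted p = 0.163).

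Cox15 works with Cox10 to make the haem A of complex IV. Its signal was 1926, 1432 and 1533 at PBO 1500 mg/kg, against 1087, 1150 and 856 in undosed rats (log2 0.65 ± 0.15, adjusted p = 0.0115), again without overlap, and its 2 other probe sets also rose (log2 0.71 and 0.95). Without undosed replicate 3, which had the lowest Cox15 signal, the adjusted p was above 0.05. Ndufaf3 rose by log2 0.40 ± 0.11 (adjusted p = 0.0296), with signals of 1906 to 1997 at 1500 mg/kg and 1363 to 1581 in undosed rats, and lost the call without undosed replicate 1 or 3 or replicate 2 at 1500 mg/kg.

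The other rises at PBO 1500 mg/kg were in subunits. Ndufs1, the large iron-sulphur subunit of complex I, had 6579, 6235 and 6227 signal units at PBO 1500 mg/kg, against 4363, 4828 and 4382 in undosed rats (log2 0.49 ± 0.11, adjusted p = 0.00789). Ndufab1, the mitochondrial acyl carrier protein that is also a complex I subunit, rose by log2 0.37 ± 0.10 (adjusted p = 0.0291), and Uqcrc1, a core subunit of complex III, by log2 0.33 ± 0.11 (adjusted p = 0.0462). Ndufab1 lost the call without any 1 of the undosed arrays, and Uqcrc1 without any 1 array other than the second at 1500 mg/kg (log2 0.26 to 0.35 where it was lost). Its partner Uqcrc2 changed by log2 0.17 on the chosen probe set (adjusted p = 0.268), while a second probe set had 1722, 2267 and 2321 at PBO 1500 mg/kg, against 849, 1168 and 1060 in undosed rats, and rose by log2 1.02 (adjusted p = 0.000561). The 2 probe sets of Uqcrc2 thus disagreed.

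The 8 complex I falls were of moderate size. Most complex I genes measured here are accessory subunits, those outside the catalytic core. So were the falling genes Ndufa1, Ndufa2, Ndufa11, Ndufb7, Ndufb10, Ndufb11 and Ndufv3, whereas the remaining fall, Ndufs8, was in a core iron-sulphur subunit. Ndufb10 had the smallest adjusted p of these, with signals of 5429, 5475 and 5227 in undosed PBO rats, 5012, 5119 and 4444 at 500 mg/kg, 4547, 4259 and 3962 at 1000 mg/kg and 3827, 3991 and 3750 at 1500 mg/kg. The 1500 mg/kg animals lay below all others apart from 1 animal at 1000 mg/kg, whose signal was within their range, and the change was log2 -0.48 ± 0.10 (adjusted p = 0.00482). Ndufa2 had 3778, 3780 and 3628 at PBO 1500 mg/kg, against 4879, 5442 and 5483 in undosed rats (log2 -0.50 ± 0.11, adjusted p = 0.00861). Ndufa11 had 6111, 6841 and 4874 at PBO 1500 mg/kg, against 8449, 8708 and 7698 in undosed rats (log2 -0.49 ± 0.12, adjusted p = 0.0149). The groups were separate for all 3, and Ndufa11 lost the call without undosed replicate 1 or 2.

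Ndufb7 was the only member lower at 1000 mg/kg, with 3306, 3744 and 3296 there, against 4717, 5196 and 4873 in undosed rats (log2 -0.51 ± 0.12, adjusted p = 0.0377). At 1500 mg/kg it had 3144, 3885 and 4243 (log2 -0.40 ± 0.12, adjusted p = 0.0377), so the fall was no larger at the higher dose. Ndufa1 changed by log2 -0.42 ± 0.09 and Ndufb11 by log2 -0.34 ± 0.09 at 1500 mg/kg, both lower (adjusted p = 0.00866 and 0.0184). Ndufs8 had 3460, 2281 and 3371 at PBO 1500 mg/kg, against 4202, 4110 and 4247 in undosed rats, and lay near the threshold (log2 -0.49 ± 0.16, adjusted p = 0.0491). At 1500 mg/kg Ndufs8 and Ndufb7 lost the call without any 1 undosed array or without replicate 2 (Ndufs8) or 1 (Ndufb7) of the dosed group, and Ndufb11 without undosed replicate 2 or 3.

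Ndufv3, a subunit of the NADH-oxidising arm, was named after its values were seen, since its groups overlapped: it had 4613, 6252 and 4192 at PBO 1500 mg/kg, against 6197, 7478 and 7769 in undosed rats (log2 -0.52 ± 0.15, adjusted p = 0.031). The second animal at 1500 mg/kg lay above the first undosed one. Its other probe set went the other way without passing the test, with 562, 453 and 603 at PBO 1500 mg/kg, against 450, 310 and 300 in undosed rats (log2 0.60, adjusted p = 0.127). In complex V, 2 small membrane subunits were lower: Atp5mf changed by log2 -0.37 ± 0.09 (adjusted p = 0.011) and Atp5mk by log2 -0.31 ± 0.10 (adjusted p = 0.0447), which lost the call without undosed replicate 2 or 3 or replicate 1 or 2 at 1500 mg/kg.

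The falls depended on how the arrays were scaled. Scaling each array to a common median moved the median of all probe sets by 0.12 log2 units at PBO 1500 mg/kg, after which 11 members rose and none passed the test as lower, and all 10 falls kept a negative value of -0.40 to -0.18. The share of higher calls among all called probe sets was 46.6% on the deposited scale and 63.0% after median scaling. Quantile normalization gave 12 rises and 8 falls, and the 5 assembly factors passed under all 3 scalings. In the same livers all 4 erythroid markers were lower, with summed signals of 4375 to 10037 at PBO 1500 mg/kg, against 21717 to 23029 in undosed rats, as were 3 of 10 macrophage, 3 of 8 stellate cell, 2 of 5 endothelial and 2 of 7 hepatocyte markers (Cps1 log2 -0.78, Hnf4a log2 -0.59), while 1 of 4 cholangiocyte markers was higher and their summed signal was 3546 to 4324 at PBO 1500 mg/kg, against 1160 to 1499 in undosed rats. The part of these cell types in the respiratory chain values was not tested.

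**Figure D2:**
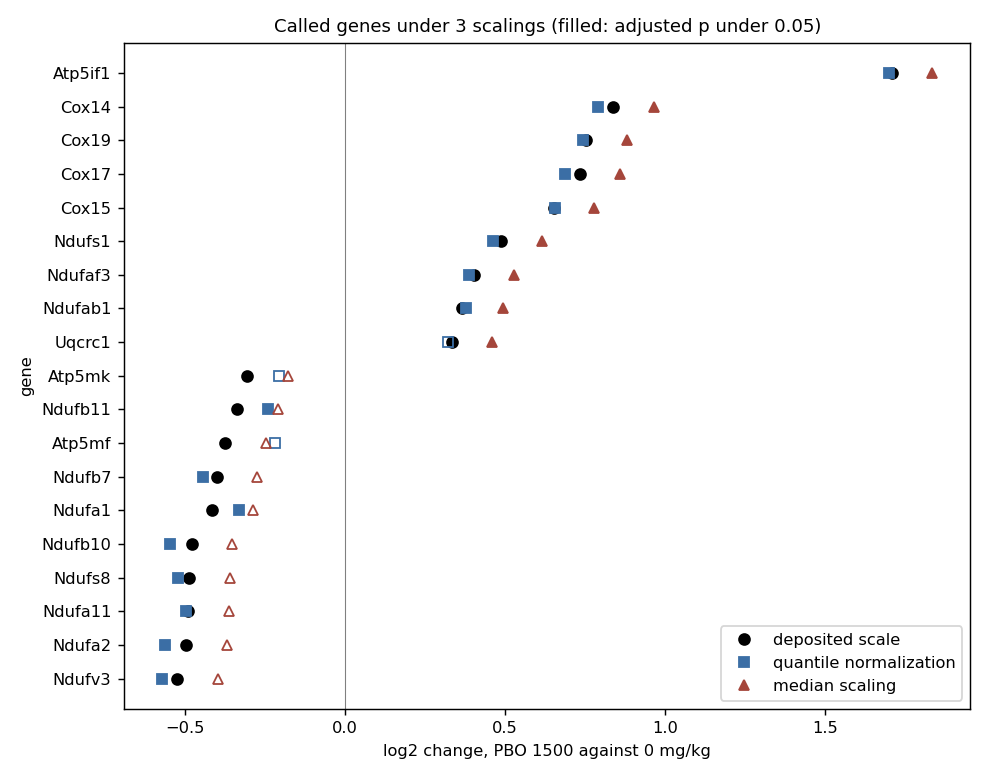
Log2 change at PBO 1500 mg/kg against undosed rats (x axis) for the 19 called members (y axis) on the deposited scale (circles), after quantile normalization (squares) and after scaling to a common median (triangles), with filled symbols for adjusted p under 0.05. The 9 rises stay filled except Uqcrc1 under quantile normalization, and none of the 10 falls stays filled after median scaling.

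Over the 4 PBO doses the slope per 500 mg/kg step was positive for 9 members and negative for 11 (adjusted p under 0.05, 10.1% and 12.4% of the 89, against 7.92% and 8.84% of all probe sets). The comparisons of the 3 doses and the slope share the undosed animals. Atp5if1 had the steepest slope, 0.56 ± 0.05 log2 units per step (adjusted p = 1.06e-05), followed by Cox14 (0.26 ± 0.04), Cox19 (0.24 ± 0.04) and Cox17 (0.24 ± 0.04). Averaged over the probe sets of each gene, the slopes of Atp5if1 and Cox19 were both 0.13 and did not pass (adjusted p = 0.143 and 0.179), and the 2 dimmer Atp5if1 probe sets had slopes of -0.10 and -0.08. The steepest negative slopes were those of Ndufv3 (-0.17 ± 0.05), Ndufb10 (-0.16 ± 0.03), Ndufa2 (-0.16 ± 0.03), Ndufs8 (-0.16 ± 0.05) and Ndufa11 (-0.15 ± 0.04). That of Ndufv3 became 0.02 (adjusted p = 0.707) when its probe sets were averaged, the other probe set having a slope of 0.22. After median scaling 2 of the 11 negative slopes passed, those of Ndufb10 and Ndufa2, and the other 9 did not. The slopes of these 2 genes passed in all 22 alternative settings. With undosed replicate 1 or 3, or replicate 1 or 2 of the 1500 mg/kg group, left out, 5 slopes were positive, and without undosed replicate 2 or 3 or replicate 1 of the 1500 mg/kg group 7, 6 and 7 were negative.

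Among the 10 members lower at 1500 mg/kg, 8 had changes that fell in order over the 3 doses, and among the 9 higher, 6 rose in order. Both sets were picked by their change at 1500 mg/kg, which favours such an order. At 1000 mg/kg, 2 members rose (Atp5if1 and Cox14) and 1 fell (Ndufb7), that is 2.25% and 1.12% of the 89, against 1.88% and 1.23% of all probe sets (3.12% in either direction). Leaving out any 1 array of the 2 groups compared left 1 rise and no fall, and leaving out the third array at 1500 mg/kg, which shares the estimate of spread, gave 7 falls. At 500 mg/kg no member passed limma's test, against 0.349% of all probe sets higher and 0.129% lower (0.478% in either direction). An unadjusted p under 0.05 was reached by 7 members (3 higher, 4 lower), and the share of all probe sets at that threshold was not counted. Without the third array at 1500 mg/kg, Atp5if1 and Cox14 passed at 500 mg/kg (adjusted p = 0.0147 and 0.0304).

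**Figure D3:**
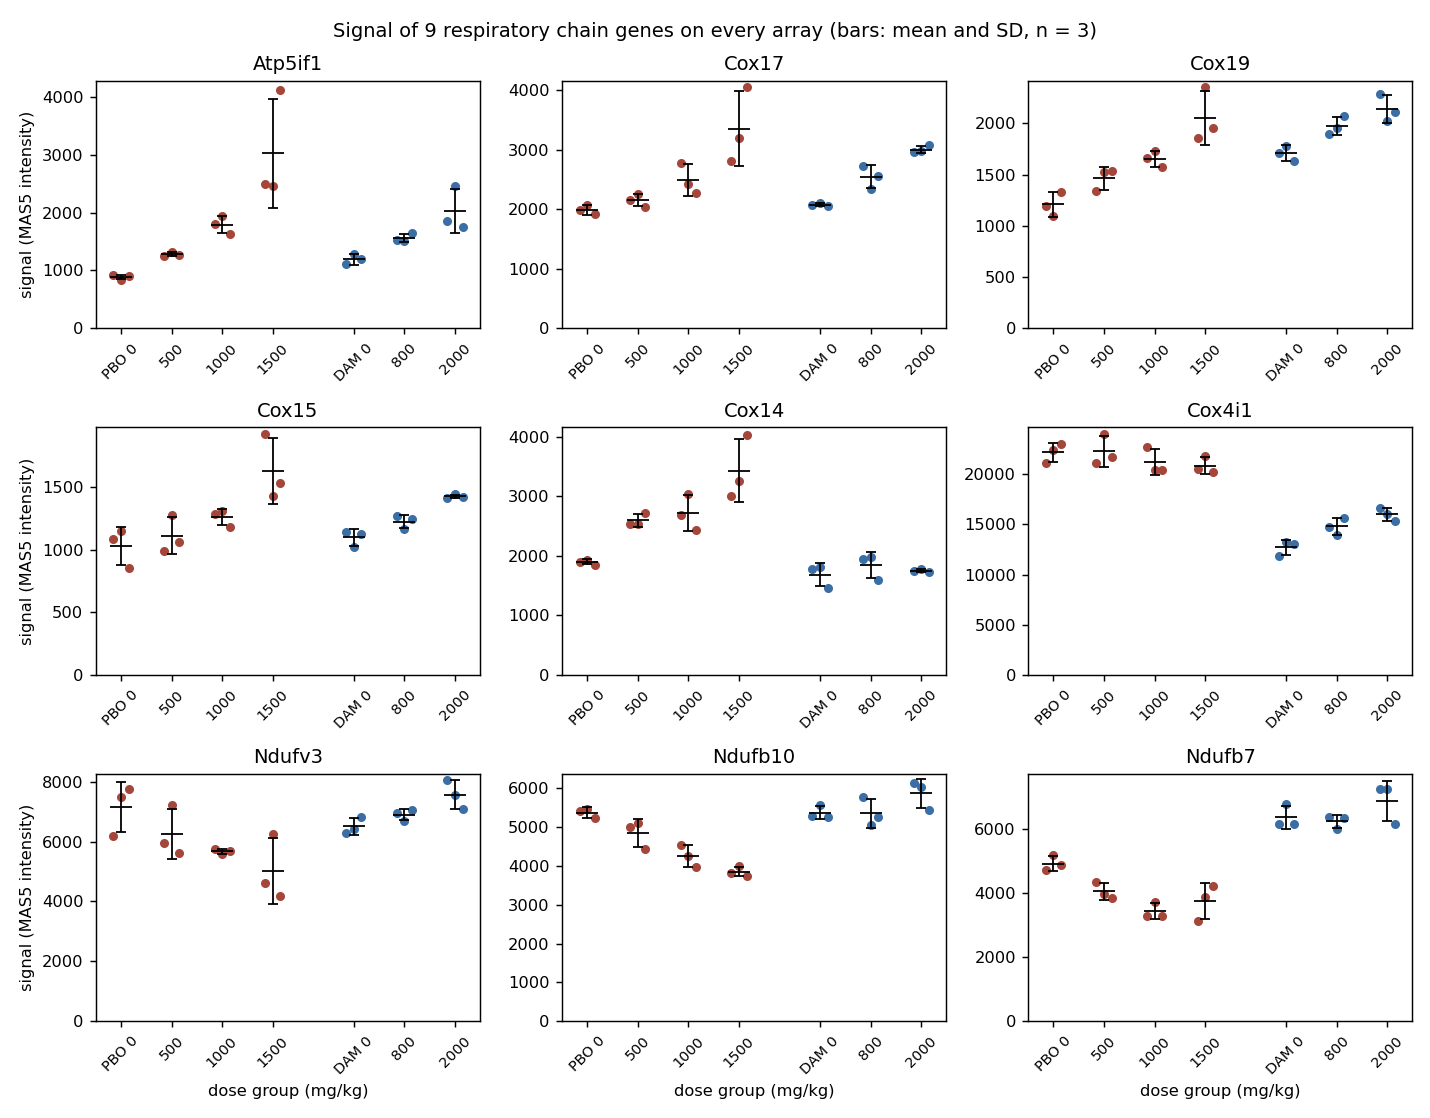
Signal of 9 members on every array (y axis, linear MAS5 intensity from 0) by dose group (x axis, mg/kg), with PBO in red and DAM in blue and black bars for the mean and SD of 3 arrays. Atp5if1 runs from 841 to 4106 over the PBO doses and from 1104 to 2457 over the DAM doses, and Ndufb10 falls to 3750 to 3991 at PBO 1500 mg/kg while its DAM groups overlap.

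With DAM the members that passed the test moved one way. At 2000 mg/kg, 11 of the 89 tested members rose and none fell relative to undosed DAM rats (12.4%, against 6.22% of all probe sets higher and 6.11% lower). At an unadjusted p under 0.05, 37 members were higher and 2 lower in limma's fit, and the share of all probe sets at that threshold was not counted. The median change of the members was 0.15 log2 units, and that of all probe sets -0.04. The 11 comprised 4 of 35 tested complex I genes, 3 of 16 complex V genes, 1 of 12 complex IV genes and 3 of 15 assembly factors. No gene of complex II (4 tested) or complex III (7 tested) passed, with 0 and 2 genes higher at an unadjusted p under 0.05. In all 11 the 3 dosed animals lay above the 3 undosed ones and the change was larger than at 800 mg/kg. Both are favoured by the choice of these 11, which were picked by their change at 2000 mg/kg. The count was 5 without undosed replicate 3, 6 without undosed replicate 1, 6 and 7 without replicate 1 or 2 at 2000 mg/kg, and 17 without replicate 3 at 2000 mg/kg, and it was 17 after both quantile normalization and median scaling, which moved the median of all probe sets by 0.10. Without undosed replicate 3 no complex I gene passed. In the same livers 3 of 8 stellate cell markers were lower, with summed signals of 9479 to 9696 at DAM 2000 mg/kg, against 11212 to 12722 in undosed rats, and none of the 4 erythroid markers passed. Only 2 of 5 cholangiocyte markers had enough signal to be tested, and 1 of them was higher. The summed signal of all 5 was 1640 to 1796 at DAM 2000 mg/kg, against 707.7 to 949.7 in undosed rats. Of 7 hepatocyte markers 1 was higher and 2 were lower, and of 10 macrophage markers 1 was higher and 2 were lower, with summed macrophage signals of 25426 to 25761 at DAM 2000 mg/kg, against 24652 to 25883 in undosed rats. Their part in the result was not tested.

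Among the called members Atp5if1 again had the largest change, with 1855, 2457 and 1757 at DAM 2000 mg/kg, against 1104, 1289 and 1191 in undosed rats (log2 0.74 ± 0.12, adjusted p = 0.00125). Its 2 dimmer probe sets changed by log2 -0.07 and 0.64 and did not pass, and averaged over all 3 the change was log2 0.44 (adjusted p = 0.105). Cox17 had 2963, 2973 and 3080 at DAM 2000 mg/kg, against 2078, 2101 and 2056 in undosed rats (log2 0.53 ± 0.07, adjusted p = 0.000516). Cox17 was also the only member past the test at 800 mg/kg, where it had 2732, 2349 and 2567 (log2 0.29 ± 0.07, adjusted p = 0.0476). That single rise is 1.12% of the 89 members, against 2.16% of all probe sets higher and 1.62% lower (3.79% in either direction), and it was lost when any array of the 2 groups other than replicate 2 at 800 mg/kg was left out (2 rises without that array).

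Cox15 had 1417, 1445 and 1424 at DAM 2000 mg/kg, against 1144, 1026 and 1129 in undosed rats (log2 0.37 ± 0.08, adjusted p = 0.00828), and Cox19 rose by log2 0.32 ± 0.08 (adjusted p = 0.017), a call lost without undosed replicate 3 or replicate 1 at 2000 mg/kg. Averaged over its 2 probe sets, Cox19 changed by log2 0.08 (adjusted p = 0.719). The 2 other Cox15 probe sets changed by log2 0.12 and 0.24 and did not pass, and the average over all 3 was log2 0.24 (adjusted p = 0.146). Cox4i1, the regulatory subunit 4 of complex IV in its common form, had 16654, 16079 and 15338 at DAM 2000 mg/kg, against 11828, 13218 and 13097 in undosed rats (log2 0.33 ± 0.07, adjusted p = 0.00818). Its 800 mg/kg signals of 14796, 13949 and 15676 lay between, with the change at that dose short of the test (log2 0.22, adjusted p = 0.123).

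In complex V the stalk subunits Atp5po, which couples the catalytic head to the membrane part, and Atp5f1c, the rotating central shaft, rose by log2 0.31 ± 0.07 and 0.26 ± 0.07 (adjusted p = 0.0138 and 0.0273). Atp5po had 11456, 11409 and 11687 at DAM 2000 mg/kg, against 8599, 9790 and 9442 in undosed rats. With the probe sets of the gene averaged, the direction turned (log2 -0.08, adjusted p = 0.783). All 16 complex V genes had a change above 0 at 2000 mg/kg, with a median of 0.18 log2 units, against -0.04 over all probe sets. The complex I rises were Ndufa6 (log2 0.29), Ndufa12 (log2 0.28), Ndufab1 (log2 0.27) and Ndufb3 (log2 0.24, named after its value was seen). Of these, Ndufa12 lay nearest the threshold (adjusted p = 0.0446), and 31 of all 36 complex I genes had a change above 0. The share of all probe sets with a change above 0 was not counted. Without undosed replicate 1, Atp5po, Atp5f1c, Ndufa12 and Ndufab1 lost the call, and without undosed replicate 3, Atp5f1c, Ndufa6, Ndufa12 and Ndufab1 did. Without replicate 1 or 2 at 2000 mg/kg, Atp5f1c, Ndufa12 and Ndufab1 lost it, as did Ndufa12 without undosed replicate 2.

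**Figure D4:**
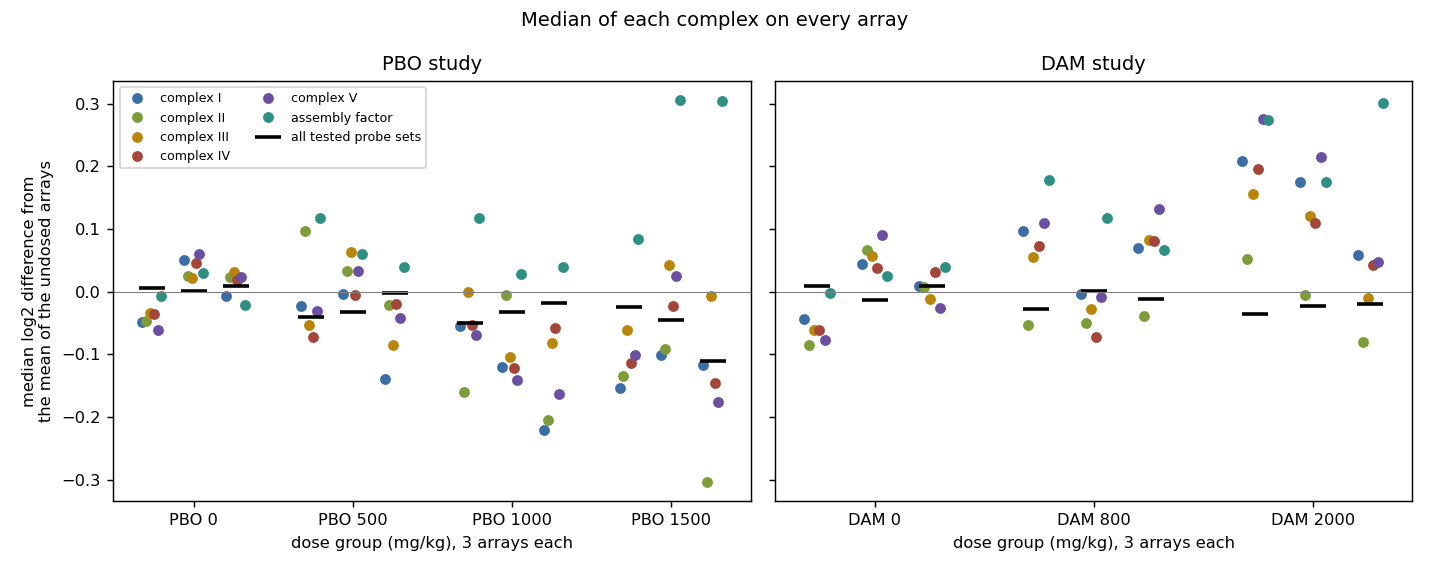
Median log2 difference from the mean of the undosed arrays of the same study (y axis) for the genes of each complex (coloured points) and for all tested probe sets (black bars) on every array, by dose group (x axis). On the 3 arrays at DAM 2000 mg/kg the median over all 95 members was 0.21, 0.16 and 0.05, and at PBO 1500 mg/kg it was -0.11, 0.00 and -0.11, where the assembly factors alone lay above 0 on all 3 arrays.

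The 5 members higher at the highest dose of both compounds were Atp5if1, Cox15, Cox17, Cox19 and Ndufab1, which is 55.6% of the 9 PBO rises and 45.5% of the 11 DAM rises. The share of all probe sets higher with both compounds was not counted, so this overlap has no background to set it against. Of the 5 members, Cox17 alone kept both calls in all 17 alternative settings: with probe sets averaged Atp5if1 and Cox19 lost both calls and Cox15 the DAM call, and Ndufab1 lost each call in 6 settings. None of the 10 members lower at PBO 1500 mg/kg passed the test with DAM, where 12.3% of all probe sets passed in either direction. A DAM change above 0 was found for 8 of the 10, and for 78 of all 95 members. In a test of the PBO effect at 1500 mg/kg minus the DAM effect at 2000 mg/kg, 2 members were higher and 7 lower (2.25% and 7.87% of the 89, against 2.14% and 2.77% of all probe sets, or 4.91% in either direction). Atp5if1 rose more with PBO (difference 0.97 ± 0.22 log2 units, adjusted p = 0.0145), and so did Cox14 (0.78 ± 0.17, adjusted p = 0.0106), for which the DAM change was log2 0.06 (adjusted p = 0.765). The 2 studies differed in compound, dose, route, duration, strain and preservation, and these cannot be told apart in the difference.

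The 7 members with a lower PBO effect were the subunits Ndufv3 (difference -0.74 ± 0.17 log2 units), Ndufb10 (-0.61 ± 0.12), Atp5mk (-0.52 ± 0.12), Ndufb7 (-0.51 ± 0.15), Ndufa1 (-0.47 ± 0.12), Atp5mf (-0.47 ± 0.11) and Cox4i1 (-0.42 ± 0.11). Cox4i1 was of another kind, since its PBO change was log2 -0.09 (adjusted p = 0.555) and its DAM change log2 0.33. Ndufb10 had 6140, 6034 and 5440 at DAM 2000 mg/kg, against 5279, 5563 and 5268 in undosed DAM rats, which overlap. The count of 7 was 4 without undosed PBO replicate 2 or 3 or undosed DAM replicate 1, 2 without DAM 2000 mg/kg replicate 1 and 12 without PBO 1500 mg/kg replicate 2. Cox14 and Ndufb10 differed between the studies in all 23 alternative settings, whereas Ndufb7 lost the call in 14, Cox4i1 in 13 and Ndufa1 in 9 of them, and Ndufv3 lost it without undosed PBO replicate 3 or DAM 2000 mg/kg replicate 1. With probe sets averaged the difference was -0.23 for Ndufv3 (adjusted p = 0.390) and -0.05 for Atp5if1 (adjusted p = 0.943), and both lost the call when only the arrays compared were fitted.

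**Figure D5:**
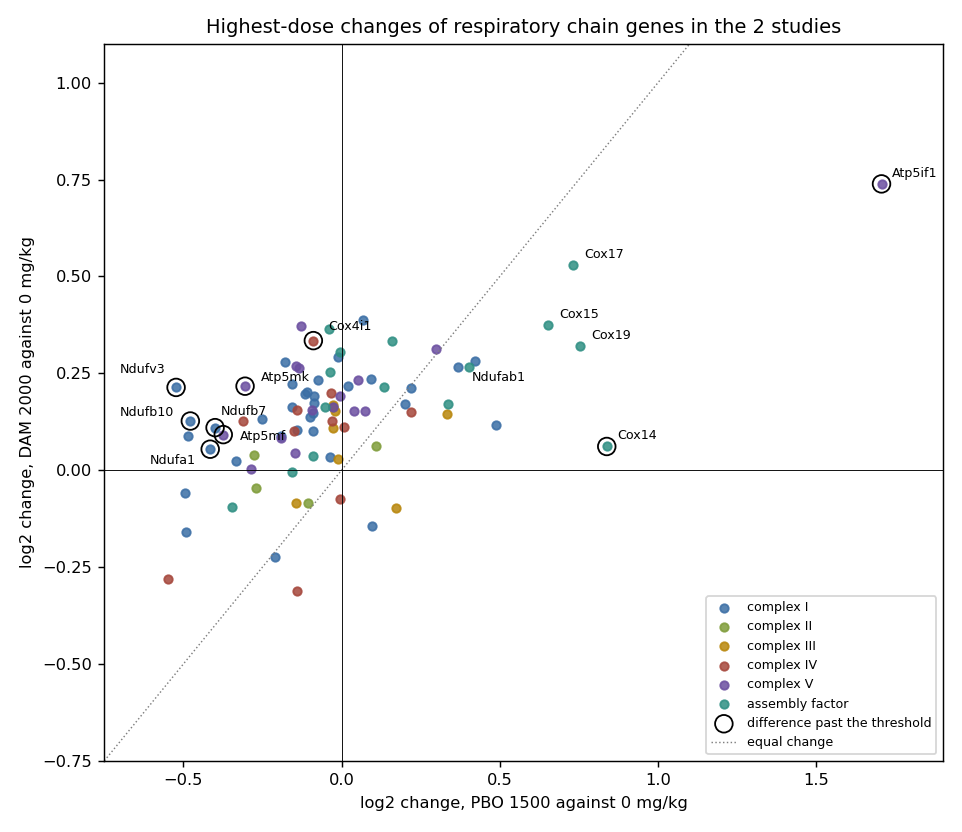
Log2 change at PBO 1500 mg/kg (x axis) against log2 change at DAM 2000 mg/kg (y axis), each relative to its own undosed group, with 1 point per member tested in both studies coloured by complex and rings on the 9 members whose difference passed the test. Atp5if1 and Cox14 lie right of the line of equal change, and the 7 other ringed members lie above it.

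The 4 complex II genes, which encode succinate dehydrogenase, had changes of -0.28 to 0.11 log2 units at PBO 1500 mg/kg and -0.09 to 0.06 at DAM 2000 mg/kg. None passed in a comparison of 2 doses, although 2 were lower at PBO 1500 mg/kg when replicate 2 of that group was left out. Sdhb, the iron-sulphur subunit, came closest, with 9327, 9997 and 8728 at PBO 1500 mg/kg, against 10853, 11706 and 11426 in undosed rats (log2 -0.28 ± 0.09, adjusted p = 0.052). Its slope over the PBO doses passed (-0.09 ± 0.03 log2 units per step, adjusted p = 0.0401), but not in 15 of 22 alternative settings. Sdha, the flavoprotein subunit, changed by log2 -0.11 (adjusted p = 0.685) at PBO 1500 mg/kg, Sdhd by -0.27 (adjusted p = 0.0929) and Sdhc by 0.11 (adjusted p = 0.489), the last 2 being the membrane anchors.

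Several complex IV subunits have tissue-specific forms. The probe sets for forms known from muscle, lung, testis or other tissues (Cox4i2, Cox6a2, Cox6b2, Cox7a1, Cox7b2, Cox8b) and for Ndufa4l2 stayed at or below 138 signal units on all 21 arrays, and 6 members in each study were too dim to be tested. The forms usual in liver were measured on every array, with Cox6a1 at 9452 to 12817, Cox6b1 at 8352 to 12374, Cox8a at 12345 to 20933 and Ndufa4 at 17722 to 25580 signal units. None of these 4 passed in a comparison of 2 doses: at PBO 1500 mg/kg Cox8a changed by log2 0.22 (adjusted p = 0.106) and Ndufa4 by 0.20 (adjusted p = 0.295), and at DAM 2000 mg/kg by 0.15 and 0.17 (adjusted p = 0.155 and 0.117). Cox7a2 is among the genes of 7 probe sets that carry several symbols and were left out, and its level is not reported.

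The undosed groups of the 2 studies already differed in 29 members, with 12 higher and 17 lower in undosed PBO rats than in undosed DAM rats (13.5% and 19.1% of the 89, against 18.2% and 14.9% of all probe sets, or 33.1% in either direction). Cox4i1 had 21156, 22469 and 22998 in undosed PBO rats, against 11828, 13218 and 13097 in undosed DAM rats (log2 0.80 ± 0.08, adjusted p = 2.08e-07). All DAM arrays, dosed ones included, lay below all PBO arrays for this gene. Cox20, a chaperone for the COX2 subunit, was also higher in undosed PBO rats (log2 1.08 ± 0.25), as was Cox5a (0.84 ± 0.16), while the small ATP synthase subunit Atp5mpl (-0.82 ± 0.13), the complex I subunit Ndufs4 (-0.78 ± 0.20) and Cox8a (-0.41 ± 0.07) were lower.

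Strain, vehicle or diet, duration and preservation cannot be told apart here, and the actin 3'/5' ratio was 2.85 to 3.16 in undosed PBO rats, against 7.08 to 9.81 in undosed DAM rats. Median scaling moved the median of all probe sets by -0.37 log2 units in this comparison and gave 3 members higher and 60 lower, so only differences such as those of Cox4i1, Cox20, Cox5a, Atp5mpl, Ndufs4 and Cox8a, which passed in all 17 alternative settings, are named. Without undosed DAM replicate 2 the count of lower members was 11.

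Genes around the chain were measured in the same fits. The mitochondrially encoded subunits COX1 and COX2, both core parts of complex IV, did not pass in either highest-dose comparison, also at an unadjusted p under 0.05 in limma. COX1 had 53564, 60513 and 51689 at PBO 1500 mg/kg, against 44045, 54921 and 56269 in undosed rats, which overlap (log2 0.10, adjusted p = 0.693), and COX2 changed by log2 -0.14 (adjusted p = 0.433). At DAM 2000 mg/kg their changes were log2 0.05 and 0.11 (adjusted p = 0.791 and 0.385).

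Of 29 tested assembly factors with other names, 5 rose and 2 fell at PBO 1500 mg/kg and 5 rose at DAM 2000 mg/kg (against 8.08% of all probe sets higher and 9.26% lower with PBO, and 6.22% and 6.11% with DAM), with medians of 0.08 and 0.14 log2 units. Acad9, which helps to assemble complex I, rose by log2 1.29 with PBO and 0.53 with DAM (adjusted p = 5.74e-05 and 0.00708). Lrpprc, which stabilises mitochondrial messenger RNA, rose by log2 0.94 and 0.28 (adjusted p = 0.00087 and 0.0189). A list of 20 genes around cytochrome c and coenzyme Q held Cyc1, Hccs, Pdss2, the Coq genes, Etfa, Etfb, Etfdh, Dhodh, Gpd2 and Sqor. Cycs, the gene of cytochrome c itself, was not in it. Of the 20 genes, 2 rose and 3 fell with PBO and 2 rose and 2 fell with DAM, with medians of 0.20 and 0.11. Coq8a, needed for coenzyme Q synthesis, was lower with both (log2 -1.66 and -0.50, adjusted p = 0.0012 and 0.00798).

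Of 21 regulators of mitochondrial biogenesis, 1 rose at PBO 1500 mg/kg and 3 rose at DAM 2000 mg/kg, with medians of -0.03 and 0.02, against -0.08 and -0.04 over all probe sets. Tfb2m, a mitochondrial transcription factor, rose with both (log2 0.56 and 0.30, adjusted p = 0.015 and 0.0198). Ppargc1a had 257, 165 and 208 at DAM 2000 mg/kg, against 55.1, 102 and 120 in undosed rats (log2 1.09 ± 0.31, adjusted p = 0.036), and at PBO 1500 mg/kg its change of log2 0.67 did not pass (adjusted p = 0.305). The changes of Nrf1, Gabpa, Esrra and Tfam passed in neither, with log2 -0.11, -0.39, 0.28 and 0.26 for PBO and log2 -0.44, -0.22, 0.18 and 0.22 for DAM. The shares over all probe sets given for the assembly factors apply to these lists too. The citric acid cycle list also held Pdha1, Pdhb and Pdhx of pyruvate dehydrogenase and Pc, the gene of pyruvate carboxylase. In this list 3 of 16 genes rose and 1 fell with each compound. Suclg1, a subunit of succinyl-CoA ligase, was among the rises (log2 0.54 and 0.32, adjusted p = 0.00135 and 0.0124). The fall with PBO was that of Pc (log2 -1.06, adjusted p = 0.00102).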

How the data were processed

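The authors deposited linear MAS5 signal intensities for 31099 probe sets on 21 arrays. The submitters' processing notes name MAS5 as the tool, and its version and settings are not given in the sources used here. Gene symbols came from the platform annotation. Intensities were taken as deposited, log2(intensity + 16) was computed, and 57 control probe sets were left out. Probe sets above the 40th percentile of mean signal were fitted in limma 3.58.1 (R 4.3.3; lmFit, eBayes with trend), with Benjamini-Hochberg adjustment over all of them. PBO and DAM arrays were fitted separately, and together for comparisons between the studies. Errors of log2 changes are standard errors. The members and gene lists were chosen with earlier results of these data known.

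Members were named by rule: the 10 largest called rises and falls with separate groups at each highest dose (5 elsewhere), the smallest adjusted p per complex, isoform pairs, the Sdh genes, and up to 2 genes per other list. Replicate numbers did not pair the samples: the correlations of 27 same-number pairs ran from -0.07 to 0.10. Of 210 array pairs, 0 were identical. Alternatives covered the pseudocount, filter, scaling, intensity trend, array weights, probe set choice, a replicate block and leaving out each array. The fitting code was tested on simulated data. Python 3.11.15, pandas 2.3.3, numpy 2.4.6 and matplotlib 3.10.9 made the summaries and plots.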

Additional observations from a re-analysis of the deposited data

Results flagged for a closer look

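For 9 members the effect at PBO 1500 mg/kg and the effect at DAM 2000 mg/kg differed by a test of the difference itself (limma, adjusted p under 0.05). The PBO effect minus the DAM effect was 0.97 log2 units for Atp5if1 and 0.78 for Cox14. It was -0.74 for Ndufv3, -0.61 for Ndufb10, -0.52 for Atp5mk, -0.51 for Ndufb7, -0.47 for Ndufa1, -0.47 for Atp5mf and -0.42 for Cox4i1. Groups of 3 arrays are too small for a test of single outlying samples.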

How the results depend on the processing

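With 3 arrays per group, many counts of members moved with the processing. With the replicate block, 1 member was higher and 0 lower at PBO 1000 mg/kg, 8 higher and 7 lower at PBO 1500 mg/kg, 0 higher at DAM 800 mg/kg, 8 higher at DAM 2000 mg/kg, 6 higher and 8 lower in the PBO slope, 2 higher and 5 lower in the difference between studies, and 7 higher and 11 lower in undosed PBO against undosed DAM rats. Median scaling gave 0 lower at PBO 1000 and 0 at 1500 mg/kg, 0 higher at DAM 800 and 17 at 2000 mg/kg, 2 lower in the slope, 2 lower in the difference, and 3 higher and 60 lower between undosed groups. Quantile normalization gave 2 lower at PBO 1000 mg/kg and 17 higher at DAM 2000 mg/kg. Without the intensity trend, 1 was higher and 0 lower at PBO 1000 mg/kg, 4 lower at PBO 1500 mg/kg, 0 higher at DAM 800 and 3 at 2000 mg/kg, 5 higher and 7 lower in the slope and 3 lower in the difference. With no filter, 1 was higher at PBO 1000 mg/kg, 0 at DAM 800 mg/kg, 7 lower in the slope and 4 lower in the difference, and with the filter at the 60th percentile 11 were lower in the difference. Fitting only the arrays compared gave 2 higher at PBO 500, 4 lower at PBO 1000, 5 higher and 2 lower at PBO 1500 and 7 higher at DAM 2000 mg/kg, and 1 higher and 1 lower in the difference. Array weights gave 2 higher at PBO 500 and 8 lower at PBO 1000 mg/kg, and averaging the probe sets of a gene gave 1 higher at PBO 1000 mg/kg. Leaving out 1 array at a time gave 0 to 2 higher and 0 lower at PBO 500 mg/kg, 1 to 3 higher and 0 to 7 lower at PBO 1000, 5 to 11 higher and 4 to 12 lower at PBO 1500, 0 to 2 higher and 0 lower at DAM 800, 5 to 17 higher and 0 lower at DAM 2000, 5 to 9 higher and 6 to 12 lower in the slope, 2 higher and 2 to 12 lower in the difference, and 8 to 12 higher and 11 to 14 lower between undosed groups. Averaging probe sets reversed Atp5po at DAM 2000 mg/kg (log2 -0.0758), the Ndufv3 slope (0.0246), Atp5if1 in the difference (-0.0486) and Atp5if1 between undosed groups (0.59), and median scaling reversed Ndufa4 (-0.39) and Sdhb (-0.38) between undosed groups. Apart from what these settings themselves change, the cause was not tested. Of the settings for called named genes, 960 kept direction and call, 235 kept direction only and 4 reversed. The slope with only the arrays compared is the same fit and was not run.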

Other observations

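Mitochondrial ribosomal proteins, which build the ribosome that translates the mitochondrially encoded subunits, were the largest of the other gene lists. At DAM 2000 mg/kg 23 of 73 tested genes rose and 1 fell, with a median of 0.25 log2 units, against 6.22% of all probe sets higher and 6.11% lower. At PBO 1500 mg/kg 10 rose and 4 fell, with a median of 0.02, against 8.08% of all probe sets higher and 9.26% lower. Mrpl49 rose by log2 1.30 at PBO 1500 mg/kg and 0.68 at DAM 2000 mg/kg (adjusted p = 4.91e-05 and 0.00114), and Mrps18b by log2 0.86 and 0.73 (adjusted p = 0.000731 and 4.38e-05). Whether the list differed between the compounds was not tested. The DAM count was 8 without undosed replicate 1, 12 without undosed replicate 3, 11 and 8 without replicate 1 or 2 at 2000 mg/kg and 34 after median scaling, and the PBO count of rises was 5 without undosed replicate 1 and 6 without undosed replicate 3.

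Mitochondrial chaperones and proteases, which fold imported proteins and remove damaged ones, rose in 6 of 15 tested genes at PBO 1500 mg/kg and in 3 at DAM 2000 mg/kg, with none lower and medians of 0.22 and 0.23 log2 units. Over all probe sets 8.08% were higher and 9.26% lower with PBO, and 6.22% and 6.11% with DAM, with medians of -0.08 and -0.04. Spg7, a subunit of the inner-membrane AAA protease, rose by log2 1.63 with PBO (adjusted p = 0.0024), and its DAM change of log2 0.42 did not pass (adjusted p = 0.0845). Hspd1, the mitochondrial chaperonin, rose by log2 0.53 with PBO (adjusted p = 0.00345), and Htra2, an intermembrane-space protease, by log2 0.34 with DAM (adjusted p = 0.0128). Leaving out 1 array at a time gave 5 to 7 rises with PBO and 1 to 5 with DAM, where the count was 1 without undosed replicate 1 or 3 or replicate 1 or 2 at 2000 mg/kg and 5 without replicate 3 at 2000 mg/kg.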
